A study of Drosophila melanogaster with 6 samples.

Results

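The Slit, Netrin and Semaphorin guidance genes of Drosophila melanogaster were examined in polyadenylated RNA of whole larvae at instar 3. The members are the 10 genes sli, comm, NetA, NetB, fra, unc-5, Sema-1a, Sema-2a, PlexA and PlexB, found by their symbols among the 16508 genes of each deposited table. They are a list of names to which no threshold on measured values was applied, drawn up with earlier results of these data known. The series holds 3 libraries labelled crol-KO and 3 labelled wild-type, each from a pool of 40 larvae. The zinc finger protein Crol (Crooked legs) was described by the study as a recruiter of Polycomb group proteins, and the RNA comparison asks which transcripts depend on it.

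The crol-KO line was made by CRISPR-Cas9 and homologous recombination, which put a DsRed marker cassette in place of crol. Embryos of a y, w stock expressing Cas9 from the Act5C promoter and carrying a DNAlig4 mutation were injected, the adults were crossed to y, w flies, and the line was kept over a CyO balancer marked with Tb and a w+ transgene. The wild-type was Oregon, so genotype and strain cannot be told apart. The study states that Crol protein was still present in the crol-KO larvae. Sex and age within the instar are not given in the labels.

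Guidance molecules steer growth cones by attraction and repulsion, and in the fly they pattern the ventral midline, the motor nerves and, later, the wiring of the adult nervous system. Slit is secreted at the midline and repels axons that carry Robo receptors. Comm keeps Robo away from the growth cone surface, so that commissural axons can cross. The Netrins are secreted proteins that attract axons through Frazzled, the fly DCC receptor, and repel through Unc-5. Semaphorins act through Plexins: Sema-1a is a transmembrane ligand of Plexin A, and Sema-2a a secreted ligand of Plexin B. Several of these genes are also used in muscle, trachea, heart and imaginal discs.

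The expected counts summed to between 23637969 and 49236787 per library labelled crol-KO and to between 28697638 and 37900887 per library labelled wild-type. Whether 1 count stands for a read or a read pair was not settled. The genotype of a library is that of its sample title, whereas the table deposited for it is named for the opposite genotype, so every direction here is that of the labels. Were the table names right instead, every direction would be reversed, and which is right was not settled. Levels are given as normalized CPM, the count as a share of the scaled library total. The CPM of crol, the gene that was targeted, was 42.8, 39.1 and 37.0 in the libraries labelled crol-KO, against 63.3, 60.6 and 73.2 in those labelled wild-type. The eye pigment transporter gene w, which is mutated in the stocks behind crol-KO and carried as a transgene by its balancer, had 15.2, 16.6 and 17.9 CPM in the libraries labelled crol-KO and 0.817, 0.623 and 0.561 in those labelled wild-type. The order of w is the reverse of that of the w mutation in the stocks, and the order of crol is that of the labels. The study reports that the coding part of crol is deleted in the knockout flies. Here crol was counted in every library of both groups. Whether these counts came from crol sequence that the deletion left in place was not tested. The level of crol therefore does not settle which labels are right. The log2 fold change of crol was -0.73 (edgeR adjusted p = 0.0043) and that of w 4.63 (edgeR adjusted p = 1.6e-05). With the length trend of each library removed, as described below, crol was at -0.14 (edgeR adjusted p = 0.64) and w at 4.71 (edgeR adjusted p = 5.9e-06). The difference in crol thus did not stand apart from the length trend, whereas that in w did. Whether the larvae carried the balancer is not given, so the part of its transgene in the level of w was not tested.

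Replicate 2 labelled wild-type stood apart in the long transcripts. Among the 910 tested genes with a mean transcript length over 5000 bases, its CPM was a median of 1.59 times the mean of the other libraries labelled wild-type, and among the 11524 shorter genes a median of 0.968 times. Across all 12434 tested genes, the log2 fold change of labelled crol-KO over labelled wild-type fell with transcript length (Spearman rho = -0.37, a description across genes of the same libraries). The median log2 fold change was -0.78 for genes over 5000 bases and -0.0046 for the rest. The guidance genes are long, 7 of the 10 exceeding 5000 bases, with a median length of 6499 bases against 1677 for all tested genes. The fold changes of the 10 guidance genes are therefore given also without that library and in a fit that removes the length trend of each library, called here the length-corrected fit. For genes over 5000 bases, the median log2 deviation from the gene mean was -0.18, -0.38 and -0.37 in the libraries labelled crol-KO. It was 0.13, 0.76 and 0.028 in those labelled wild-type, so leaving out replicate 2 labelled wild-type does not remove the difference. The trend thus differs between the groups, and the length-corrected fit also removes any genotype effect shared by long genes. The trend and such an effect cannot be told apart here.

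All 10 guidance genes passed the filter of at least 10 counts in at least 3 libraries, with 57 to 5160 counts in a library. A gene was called where the edgeR adjusted p was below 0.05 and the log2 fold change beyond 1 in size. The ligand genes sli, NetB and Sema-1a, 3 of the 10, were called lower in the libraries labelled crol-KO, and 0 were called higher, where 7.55% of all tested genes were called lower and 6% higher. At an adjusted p under 0.05 alone, fra, PlexA and PlexB joined them, which gave 6 lower and 0 higher, beside 17.8% and 15.3% of all tested genes. That count of 6 was 4 without replicate 1 labelled crol-KO, 2 without replicate 2 or replicate 3 labelled crol-KO, 3 without replicate 1 labelled wild-type, and 4 where replicate 3 labelled wild-type was left out, and NetB and Sema-1a passed in each of these. The median log2 fold change of the 10 genes was -0.44, against -0.052 over all tested genes. In 8 of the 10 genes every library labelled crol-KO lay below every library labelled wild-type in CPM, as it did in 26.5% of all tested genes.

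**Figure D1:**
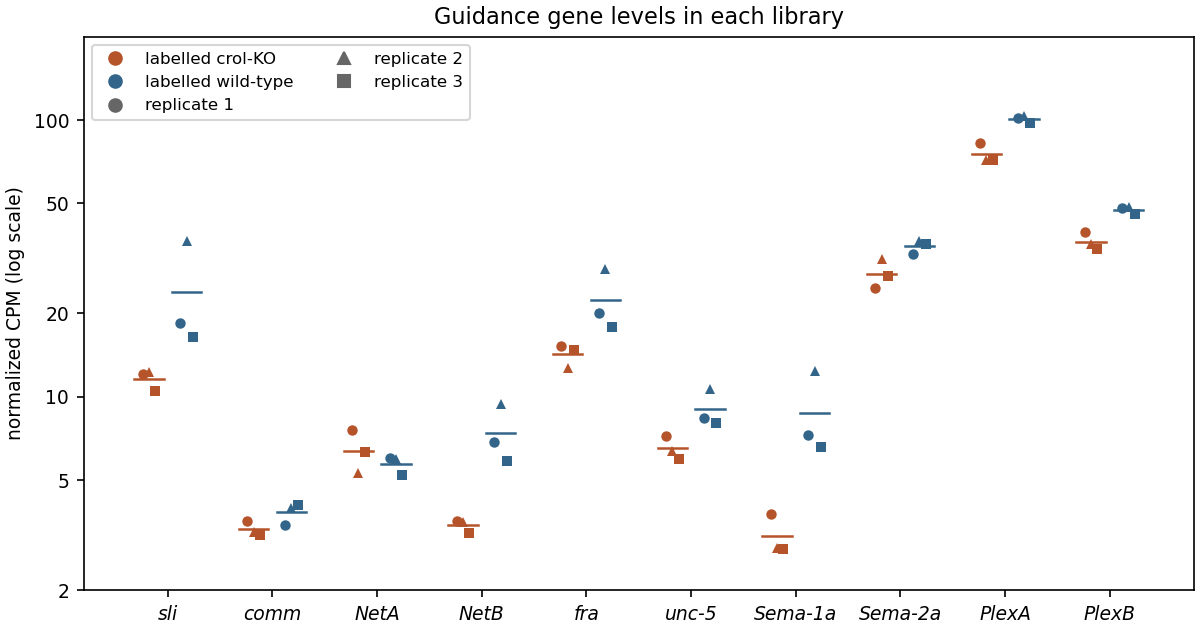
Normalized CPM (log axis) of the 10 guidance genes in each of the 6 libraries, labelled crol-KO to the left of labelled wild-type for each gene. Points are libraries, their shape is the replicate number and lines are group means (n = 3). The groups overlap for comm and NetA only. Replicate 2 labelled wild-type is the highest library labelled wild-type for 8 of the 10 genes, and for 41.7% of all tested genes. Its margin is widest for sli (36.4 CPM). For PlexA, PlexB and Sema-2a it holds only 1.02, 1.01 and 1.02 times the next library of its group.

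Among the ligands, sli had 12.1, 12.3 and 10.5 CPM in the libraries labelled crol-KO, from 470, 471 and 211 counts, against 18.5, 36.4 and 16.5 CPM in those labelled wild-type, from 635, 1812 and 588 counts. The groups did not overlap, and replicate 2 labelled wild-type held 2.08 times the mean of the other libraries of its group. This gave -1.04 on the log2 scale (standard error 0.288, edgeR adjusted p = 0.029), or 0.488 times the level of labelled wild-type. With replicate 2 labelled wild-type left out, sli stood at -0.56 (edgeR adjusted p = 0.012), under the fold threshold. The call was also lost without any 1 of the libraries labelled crol-KO (log2 fold change -1.06, -1.08 and -0.97 without replicates 1, 2 and 3, with edgeR adjusted p of 0.068, 0.071 and 0.098). DESeq2 gave -0.999, on the other side of the threshold. In the length-corrected fit sli was at -0.049 (standard error 0.0944, edgeR adjusted p = 0.71).

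NetA and NetB, the Netrin genes, lie next to each other on the X chromosome with 1 protein-coding gene, CG5321, between them (Release 6 annotation). NetB had 3.55, 3.52 and 3.22 CPM in the libraries labelled crol-KO, from 138, 135 and 65 counts, against 6.86, 9.41 and 5.86 CPM in those labelled wild-type, from 235, 468 and 209 counts. The lowest library labelled wild-type held more than the highest labelled crol-KO, and the 3 libraries labelled crol-KO lay close together. NetB was called lower, with a log2 fold change of -1.10 (standard error 0.202, edgeR adjusted p = 0.0061). It fell under the fold threshold without replicate 2 labelled wild-type, at -0.85 (edgeR adjusted p = 0.0064), and stood at -0.29 in the length-corrected fit (standard error 0.148, edgeR adjusted p = 0.17).

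Its neighbour NetA had 7.56, 5.30 and 6.29 CPM in the libraries labelled crol-KO and 5.98, 5.95 and 5.22 CPM in those labelled wild-type. The groups overlapped, and NetA had the only positive fold change among the 10 genes, 0.16 on the log2 scale (standard error 0.170, edgeR adjusted p = 0.50, 95% normal interval from -0.17 to 0.49). NetA was at 0.22 without replicate 2 labelled wild-type (edgeR adjusted p = 0.39) and at 0.41 in the length-corrected fit (edgeR adjusted p = 0.054). With limma on log2(TPM + 1) the value was -0.32, in a setting where the median of all genes was -0.48.

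The transmembrane Semaphorin gene Sema-1a had 3.75, 2.85 and 2.82 CPM in the libraries labelled crol-KO, from 146, 109 and 57 counts, against 7.30, 12.4 and 6.56 CPM in those labelled wild-type, from 250, 616 and 234 counts. No value overlapped, and replicate 2 labelled wild-type was again the highest, at 1.79 times the mean of the others. Sema-1a fell by 1.47 on the log2 scale (standard error 0.270, edgeR adjusted p = 0.0061), the largest change of the 10 genes. It was still called lower with each library left out in turn, between -1.63 and -1.10, the last without replicate 2 labelled wild-type. The length-corrected fit gave -0.55 (standard error 0.127, edgeR adjusted p = 0.013), lower than labelled wild-type but under the fold threshold.

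The secreted Semaphorin gene Sema-2a had 24.7, 31.4 and 27.2 CPM in the libraries labelled crol-KO, against 32.8, 36.6 and 35.8 CPM in those labelled wild-type. These groups did not overlap either, the highest library labelled crol-KO lying just under the lowest labelled wild-type. The log2 fold change of -0.34 (standard error 0.124) did not pass the test (edgeR adjusted p = 0.069). Sema-2a stood at -0.27 with replicate 2 labelled wild-type left out and at -0.018 in the length-corrected fit.

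Of the Netrin receptors, fra had 15.3, 12.7 and 14.8 CPM in the libraries labelled crol-KO and 20.1, 28.9 and 17.8 CPM in those labelled wild-type. All libraries labelled crol-KO were lower, at -0.65 on the log2 scale (standard error 0.190, edgeR adjusted p = 0.035), or -0.38 without replicate 2 labelled wild-type (edgeR adjusted p = 0.043). The repulsive receptor gene unc-5 had 7.22, 6.37 and 5.94 CPM in the libraries labelled crol-KO, against 8.41, 10.6 and 8.02 CPM in those labelled wild-type. Its groups did not overlap, at a log2 fold change of -0.47 that missed the test (standard error 0.158, edgeR adjusted p = 0.054), and that was -0.30 without replicate 2 labelled wild-type (edgeR adjusted p = 0.14). In the length-corrected fit both receptors were near 0, at 0.076 for fra and 0.11 for unc-5 (edgeR adjusted p = 0.54 and 0.50). An exon of Pms2 overlaps unc-5 on the opposite strand (Release 6 annotation), and the strand setting of the counting is not given in the sources used here, so the count of unc-5 is uncertain.

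The Plexin genes, both on chromosome 4, were the best counted receptors and moved by nearly the same amount. PlexA had 82.9, 71.7 and 72.0 CPM in the libraries labelled crol-KO and 102, 104 and 97.5 CPM in those labelled wild-type. PlexB had 39.3, 35.7 and 34.1 CPM in the libraries labelled crol-KO and 47.9, 48.6 and 45.7 CPM in those labelled wild-type. Neither gene overlapped between groups, and replicate 2 labelled wild-type did not stand out, at 1.04 times the mean of the other libraries for both. The log2 fold changes were -0.42 for PlexA and -0.38 for PlexB (standard errors 0.113 and 0.107, edgeR adjusted p = 0.026 and 0.030), under the fold threshold. Without replicate 2 labelled wild-type they were -0.37 and -0.33, and in the length-corrected fit 0.30 and 0.32 (edgeR adjusted p = 0.26 and 0.22), of opposite sign. PlexB overlaps the antisense RNA gene asRNA:CR45124, and PlexA an INE-1 element on its own strand, so both counts are uncertain to that extent.

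Of the regulators of guidance, comm had 3.55, 3.24 and 3.17 CPM in the libraries labelled crol-KO, against 3.44, 3.96 and 4.07 CPM in those labelled wild-type. The groups overlapped, the highest library labelled crol-KO lying above the lowest labelled wild-type. At 1723 bases comm is the shortest of the 10 genes, and its log2 fold change of -0.20 (standard error 0.164, edgeR adjusted p = 0.37) was -0.15 without replicate 2 labelled wild-type and -0.28 in the length-corrected fit.

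**Figure D2:**
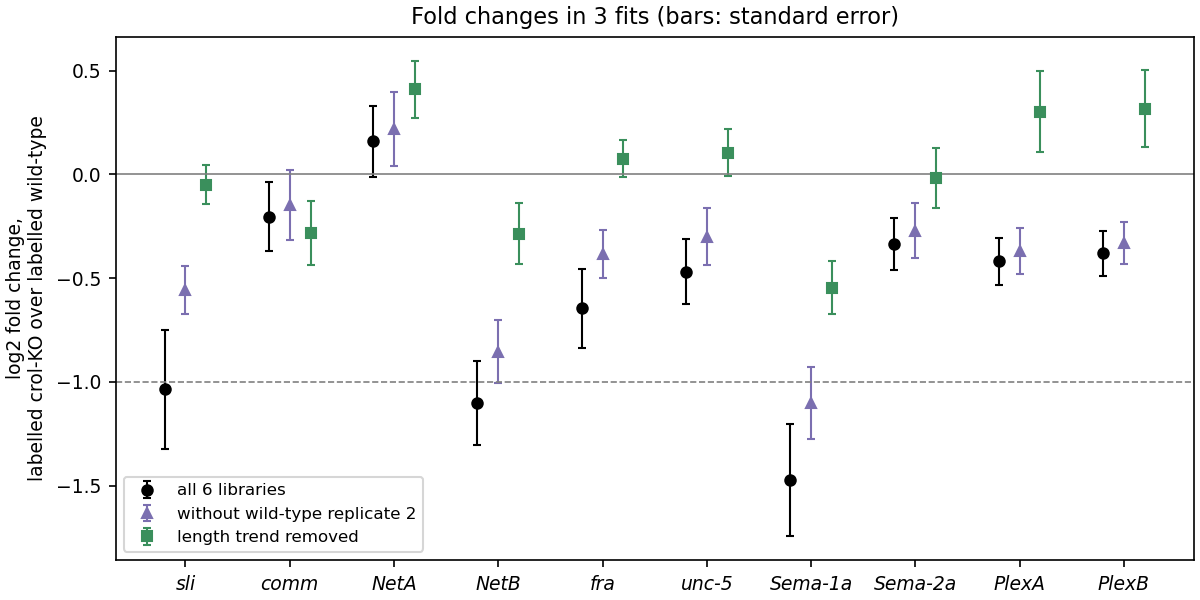
Log2 fold change of labelled crol-KO over labelled wild-type for each guidance gene in 3 edgeR fits, with standard errors as bars and a dashed line at -1. With all 6 libraries sli (-1.04), NetB (-1.10) and Sema-1a (-1.47) lie past the line, without replicate 2 labelled wild-type only Sema-1a (-1.10) does, and with the length trend removed none of the 10 genes does.

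Over the 10 genes, leaving out replicate 2 labelled wild-type left 1 call, Sema-1a, beside 4.73% of tested genes called lower in that fit. At an edgeR adjusted p under 0.05 alone 6 genes were lower there: sli, NetB, fra, Sema-1a, PlexA and PlexB. Leaving out any 1 of the other libraries lost between 2 and 4 of these 6, NetB and Sema-1a excepted. The length-corrected fit called none of the 10, beside 5.68% of tested genes called lower. At an adjusted p under 0.05 alone it held 1, Sema-1a, where 16.2% of tested genes were lower. In that fit 5 of the genes had a positive and 5 a negative log2 fold change, with a median of 0.029.

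The long guidance genes were also placed among genes of like length. Of the 7 genes over 5000 bases, 3 were called lower, or 42.9%, where 29.9% of the 910 tested genes of that length were. Sema-1a lay at percentile 9.78 of the log2 fold changes of those 910 genes (a low percentile is a more negative value), NetB at 27.5 and sli at 31.3. The receptors had less negative values than most genes of that length: fra was at percentile 60.8, unc-5 at 74.5, PlexA at 78.8 and PlexB at 81.8.

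**Figure D3:**
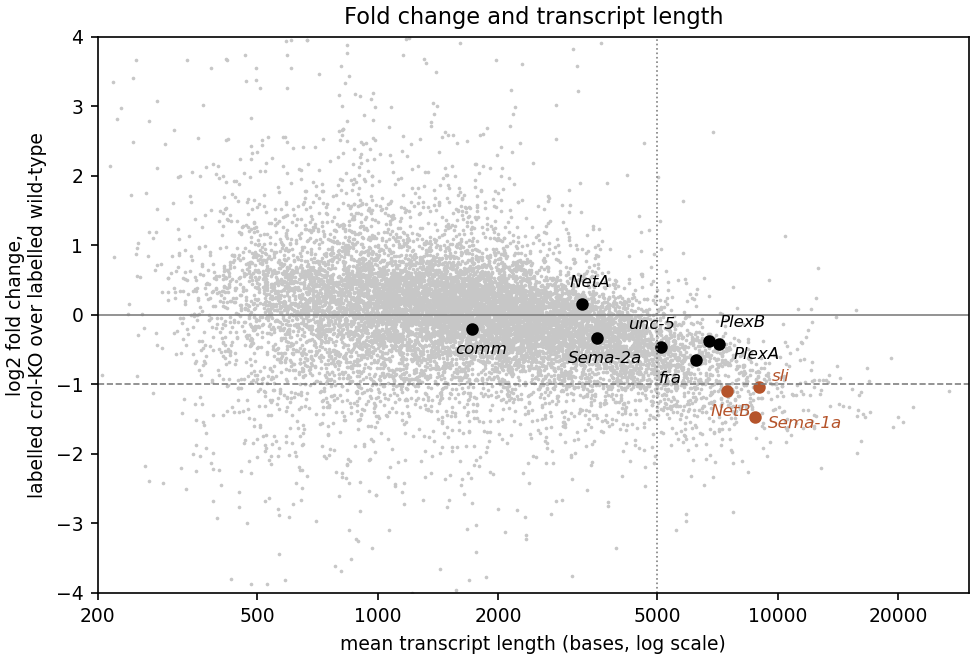
Log2 fold change of labelled crol-KO over labelled wild-type against mean transcript length (log axis) for tested genes (grey), with the guidance genes named and those called lower in orange. The dotted line is at 5000 bases and the dashed line at -1, and 122 of the 12434 genes lie outside the axes. The called genes sli, NetB and Sema-1a are the 3 longest of the 10.

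Ratios within a library cancel its scaling, and 4 pairs of related genes were compared (two-sided exact permutation tests, for which 3 against 3 libraries cannot go below p = 0.10). The TPM of NetB was 0.198, 0.280 and 0.219 times that of NetA in the libraries labelled crol-KO, against 0.505, 0.692 and 0.490 times in those labelled wild-type. NetB was thus the lesser Netrin transcript in all 6 libraries, and more so in each library labelled crol-KO. The difference of the log2 ratios was -1.27 (exact p = 0.10, adjusted over the 4 ratios 0.20). Sema-1a was 0.0572, 0.0347 and 0.0439 times Sema-2a in the libraries labelled crol-KO and 0.0884, 0.135 and 0.0764 times in those labelled wild-type. These groups did not overlap, with a difference of -1.13 (exact p = 0.10, adjusted 0.20).

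The receptor pairs gave overlapping ratios. PlexA was 1.96, 1.91 and 2.07 times PlexB in the libraries labelled crol-KO and 1.98, 2.01 and 1.998 times in those labelled wild-type, a log2 difference of -0.012 (exact p = 0.70, adjusted 0.70). fra was 1.75, 1.63 and 1.98 times unc-5 in the libraries labelled crol-KO and 1.94, 2.25 and 1.82 times in those labelled wild-type, a difference of -0.16 (exact p = 0.30, adjusted 0.40). The ligand pairs join a long and a short transcript (7468 and 3248 bases for NetB and NetA, 8779 and 3528 for Sema-1a and Sema-2a), while the receptor pairs are of like length. In the length-corrected fit the log2 fold change of NetB was still below that of NetA by 0.70 and that of Sema-1a below that of Sema-2a by 0.53, values given with no test.

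**Figure D4:**
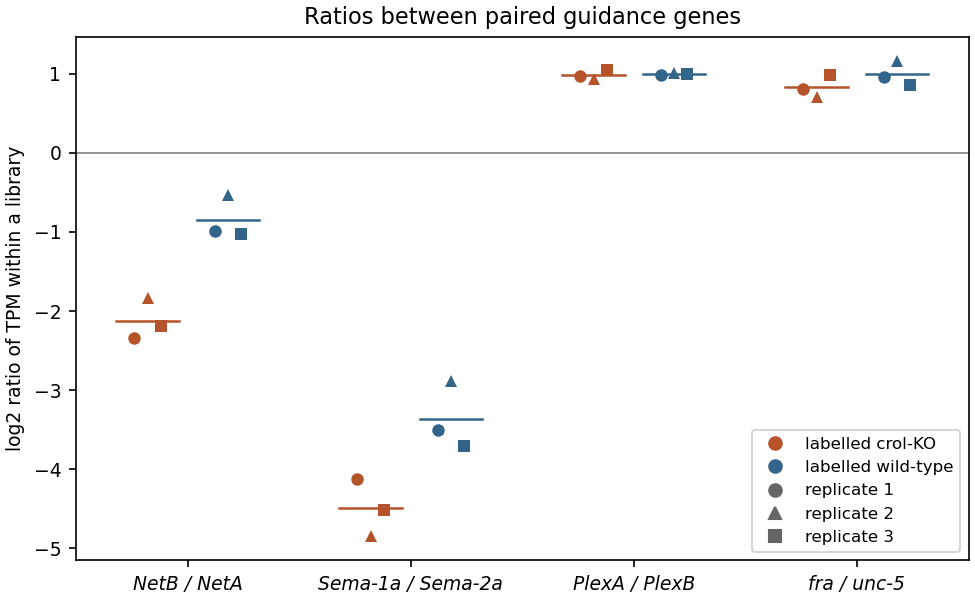
Log2 ratio of TPM within each library for 4 pairs of guidance genes, labelled crol-KO to the left of labelled wild-type. Points are libraries and lines are group means (n = 3). The groups are apart for NetB over NetA (difference -1.27) and for Sema-1a over Sema-2a (-1.13), and they overlap for PlexA over PlexB and for fra over unc-5.

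On the scale of TPM, which is per length, the order of the genes was led by PlexA, Sema-2a and PlexB in both groups. TPM was lower in labelled crol-KO for most genes, with a median log2 difference over all tested genes of -0.48 on the log2(TPM + 1) scale, so the 2 groups are not compared by it here. PlexA averaged 7.52 ± 1.49 TPM in the libraries labelled crol-KO and 15.8 ± 3.31 TPM in those labelled wild-type (SD, n = 3 each). Sema-2a averaged 5.51 ± 0.0666 TPM in labelled crol-KO and 11.3 ± 2.31 TPM in labelled wild-type, and PlexB 3.79 ± 0.743 TPM in labelled crol-KO and 7.93 ± 1.61 TPM in labelled wild-type. In labelled crol-KO these 3 genes did not overlap in range with their neighbours in the order, and in labelled wild-type PlexA and Sema-2a did.

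Below them came fra, with 1.61 ± 0.361 TPM in labelled crol-KO and 4.11 ± 1.82 TPM in labelled wild-type. In labelled crol-KO, fra, NetA and comm overlapped in turn, as did sli and unc-5, and NetB and Sema-1a at the bottom with 0.317 ± 0.0473 and 0.25 ± 0.0656 TPM. In labelled wild-type each of the genes from fra down overlapped its neighbour. There sli had 3.12 ± 1.98 TPM and stood above NetA, and in labelled crol-KO it had 0.903 ± 0.153 TPM and stood below NetA. Among all tested genes, the mean TPM over the 6 libraries put PlexA at percentile 69.4, and NetB and Sema-1a at 13.0 and 12.6.

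The deposited tables also give the transcript length of a gene weighted by the abundance of its isoforms, a readout of isoform use. The tables list between 2 (comm, unc-5 and PlexB) and 7 (NetB and Sema-1a) RefSeq transcripts for a guidance gene. The weighted length of NetB was 7605, 7734 and 7514 bases in the libraries labelled crol-KO, against 7252, 7312 and 7392 bases in those labelled wild-type. The weighted length of NetB was thus higher in each library labelled crol-KO, by 299 bases on average (exact permutation p = 0.10, adjusted over the 10 genes 0.50). It rests on 138, 135 and 65 counts in those libraries, shared out over 7 transcripts. The part of the length trend in it was not tested. PlexB was the other gene without overlap, longer by 16.5 bases (exact permutation p = 0.10, adjusted 0.50). Sema-1a ranged from 8304 to 9298 bases in labelled crol-KO and from 8312 to 8794 bases in labelled wild-type, with overlap, as for the other 7 genes.

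Other genes of the same pathways were taken from lists of symbols. Their counts stand beside 7.55% of all tested genes called lower and 6% called higher. Of tested genes over 5000 bases, 29.9% were called lower. Of 9 further Slit pathway genes, 4 were called lower and 0 higher, with a median log2 fold change of -0.70. They were led by Sdc, the syndecan that binds Slit, with 49.2, 40.3 and 45.4 CPM in labelled crol-KO and 155, 164 and 161 CPM in labelled wild-type (log2 fold change -1.83). The metalloprotease gene kuz, known to cleave Robo, was at -1.73 and the Robo family receptor gene lea at -1.07 (-0.66 without replicate 2 labelled wild-type and -0.31 in the length-corrected fit). The count of 4 was 2 without replicate 2 or replicate 3 labelled crol-KO, or without replicate 2 labelled wild-type. Sdc and kuz were called lower in the length-corrected fit too, at -1.64 and -1.05. The main Slit receptor gene, robo, named after its values were seen, was not called (log2 fold change -0.39, standard error 0.193, edgeR adjusted p = 0.15), and was at 0.35 in the length-corrected fit.

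Of 4 Netrin pathway genes, Dscam1, another Netrin receptor gene, and the kinase gene Abl were called lower (-1.32 and -1.10), and without replicate 2 labelled wild-type neither was (-0.75 and -0.60). Neither was called without replicate 2 or replicate 3 labelled crol-KO. Of 10 Semaphorin pathway genes only the secreted ligand gene Sema-2b was called, at -1.23, with 4.76, 4.78 and 4.51 CPM in labelled crol-KO and 9.84, 12.9 and 10.3 CPM in labelled wild-type. The log2 fold change of Sema-2b was -1.07 without replicate 2 labelled wild-type and -0.70 in the length-corrected fit. The list held 2 calls without replicate 1 labelled wild-type, 3 where replicate 3 of that group was left out and 2 with DESeq2.

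Of 22 other guidance ligands and receptors, 5 were called lower and 0 higher (median -0.62), led by the Ig superfamily gene tutl (-1.40) and the receptor phosphatase genes Ptp10D (-1.13) and Ptp99A (-1.11). Of 17 cytoskeletal effectors, 4 were called lower and 0 higher (median -0.46), led by the Rac exchange factor gene sif (-1.73), the spectraplakin gene shot (-1.54) and the coronin gene pod1 (-1.24). The genes named from these lists all exceed 5000 bases, a length at which 29.9% of tested genes were called lower. In the length-corrected fit neither list held a call. Without replicate 2 labelled wild-type the receptor and ligand list held 0 and the effector list 1, sif. The calls were also fewer without replicate 2 labelled crol-KO (2 and 1) and without replicate 3 labelled crol-KO (3 and 2), and the receptor and ligand list held 8 without replicate 3 labelled wild-type.

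Markers of the cells that use these genes were read beside them. The 10 neuron markers, all tested, summed to 93.6 to 109 CPM in the libraries labelled crol-KO and to 165 to 236 CPM in those labelled wild-type, without overlap. Of these, 5 were called lower and 0 higher (median -1.30), led by Appl (-2.32), fne (-1.79) and para (-1.60). Of all tested genes 7.55% were called lower, and of those over 5000 bases 29.9%. The study, from gene ontology terms, reported neuron-related functions among its genes up-regulated in crol-KO. By the labels these markers went the opposite way, and the cause of the difference was not tested. The pan-neuronal marker elav had 14.4, 11.7 and 13.4 CPM in labelled crol-KO and 23.5, 30.6 and 23.5 CPM in labelled wild-type (log2 fold change -0.98, standard error 0.148, edgeR adjusted p = 0.0028). The value for elav was -0.81 where replicate 2 labelled wild-type was left out and -0.33 in the length-corrected fit. Without replicate 2 labelled wild-type 4 neuron markers were called lower (median -0.79), without replicate 2 or replicate 3 labelled crol-KO 3, and in the length-corrected fit 2, Appl and fne (median -0.44).

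The 8 glia markers summed to 134 to 149.7 CPM in labelled crol-KO and to 159.6 to 171 CPM in labelled wild-type, also without overlap. Of these, 0 were called in either direction (median -0.17, and -0.15 in the length-corrected fit). The marker lists are not of like length. The neuron markers Appl, fne, para and elav have mean lengths of 6055, 5643, 12284 and 5753 bases, and no glia marker exceeds 4082 bases. The defining glia marker repo had 2.26, 2.11 and 2.03 CPM in labelled crol-KO and 2.51, 2.73 and 2.16 CPM in labelled wild-type, with a log2 fold change of -0.21 (edgeR adjusted p = 0.44). Of the 10 imaginal disc markers 0 were called (median -0.36). Their summed level was 85.4 to 96.6 CPM in labelled crol-KO and 104 to 132 CPM in labelled wild-type, again without overlap. The 8 muscle markers overlapped between groups (10891 to 16317 CPM in labelled crol-KO and 10545 to 12117 CPM in labelled wild-type). Their median was -0.10, and 0.20 in the length-corrected fit. Of these, 1, sls, was called lower (-2.24), a call lost without replicate 2 or replicate 3 labelled crol-KO and in the length-corrected fit. Without replicate 3 labelled wild-type 2 were called. At an adjusted p under 0.05 alone 1 was lower, sls, and 1 higher. The higher one was Act57B (0.77, edgeR adjusted p = 0.041), named after its values were seen. The part of neuronal content in the levels of the guidance genes was not tested, and in RNA of whole larvae fewer cells of a type and less RNA per cell cannot be told apart.

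**Figure D5:**
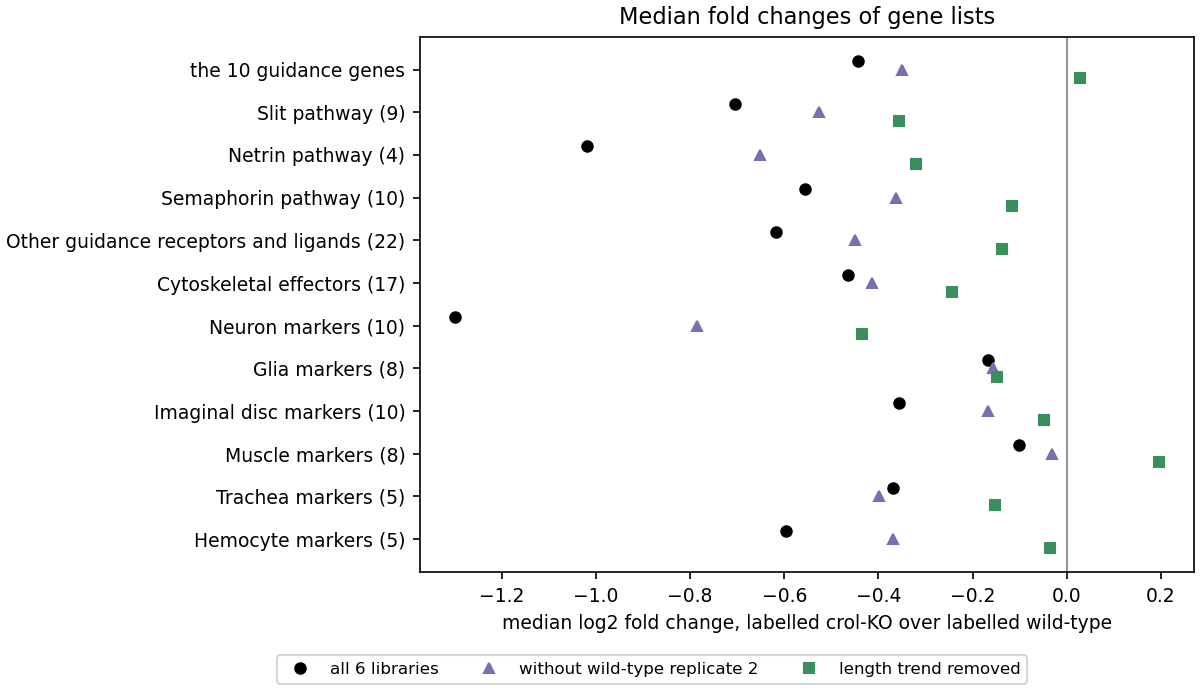
Median log2 fold change of labelled crol-KO over labelled wild-type for the 10 guidance genes and for lists of related genes and cell markers (number of genes tested in brackets), in 3 edgeR fits. Fat body and salivary gland markers are not plotted. The medians of the guidance genes are -0.44 with all 6 libraries, -0.35 without replicate 2 labelled wild-type and 0.029 with the length trend removed, and those of the neuron markers -1.30, -0.79 and -0.44.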

How the data were processed

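RNA was compared between 3 libraries labelled crol-KO and 3 labelled wild-type, separate samples of larvae. The authors trimmed reads with Trim Galore 0.6.1, aligned them to dm3 with STAR 2.7.3a and ran RSEM 1.3.2, and the deposited tables hold its expected counts for each gene without scaling. The deposited TPM values are RSEM abundances scaled per library by the authors. Other deposited columns hold the weighted transcript length. The members, lists and tests were chosen with earlier results of these data known.

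Expected counts were rounded, and edgeR 4.0.16 was run on the 12434 genes that reached 10 counts in 3 or more libraries (R 4.3.3, TMM, quasi-likelihood, Benjamini-Hochberg), with no covariate. A call needed an adjusted p below 0.05 and a log2 fold change beyond 1 in size, as in the study's methods. The length-corrected fit took as an offset the trend of each library with log2 transcript length, smoothed by lowess with a span of 0.3. Alternatives were DESeq2 1.42.0 and its size factors, upper-quartile scaling, other filters and thresholds, limma 3.58.1 on log2 TPM with a pseudocount of 1 or 0.1, the replicate number as a block and each library left out. Named genes are the members, crol, w, elav, repo and, per list, up to 3 called genes of largest change. The genes robo, Act57B, Lsp1beta, Lsp2, Rfabg and Sgs3 were added after their values were seen. The p-values measure the spread between these samples. On simulated counts of this comparison over 12303 genes, edgeR called 86.4% of genes changed by 1.5 on the log2 scale and 7.35% of those changed by 0.75. The value 0.75 lies under the fold threshold, and 25% of those genes passed the adjusted p with the right sign. The simulated counts held no length trend and no library that stood apart, so these shares may not hold for the long guidance genes. Current symbols and chromosomes came from the Release 6 annotation, whose coordinates were not used with dm3. Sequences were not used here.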

Additional observations from a re-analysis of the deposited data

How the results depend on the processing

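The 12434 tested genes gave 746 calls higher and 939 lower, and with upper-quartile scaling 912 higher and 752 lower. The total of 1685 became 3386 with limma on log2(TPM + 0.1) and 4112 with no fold change threshold, and lay between 1291 and 1978 with 1 library left out. The number of guidance genes called, 3, was 1 with upper-quartile scaling, 1 with limma on log2(TPM + 1), 8 with limma on log2(TPM + 0.1), 6 with no fold change threshold, 0 with the length offset, 0 with the length offset and the replicate block, and 0 with the length offset and replicate 2 labelled wild-type left out (a pairing of choices added after the data were seen). With 1 library left out it lay between 1 and 3. In the limma settings the median of all genes was -0.48 and -0.67, and the log2 fold change of NetA was -0.32 and -0.50. Relative to that median, also added later, the log2(TPM + 1) values of sli, NetB and Sema-1a were -0.53, -0.21 and -0.28. The length offset turned fra, unc-5, PlexA and PlexB to 0.076, 0.11, 0.30 and 0.32, with the replicate block to 0.075, 0.11, 0.34 and 0.35, and without replicate 2 labelled wild-type to 0.037, 0.040, 0.087 and 0.11. The difference of PlexA over PlexB lay between -0.045 and 0.015 with 1 library left out, the positive value without replicate 2 labelled crol-KO. The cause of these shifts was not tested.

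The replicate numbers did not pair the libraries (mean correlation of deviations from group means -0.11 for same numbers and 0.053 for others). With the replicate block 1491 genes and 2 guidance genes were called, sli standing at -0.95, and 3 guidance genes rather than 6 passed an adjusted p of 0.05, since fra, PlexA and PlexB did not. With upper-quartile scaling 3 passed too.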

Other observations

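Markers of further larval tissues were read in the same fit. Of 5 trachea markers, uif (log2 fold change -1.38) and trh (-1.03) were called lower and 0 higher. Without replicate 1 or replicate 2 labelled crol-KO 1 of them was called, and without replicate 3 labelled crol-KO 0. The count was also 1 with DESeq2, with upper-quartile scaling and with the replicate block. Of 5 hemocyte markers 0 were called (median -0.60). Of 6 fat body markers, Fbp1 (-2.15), Lsp1alpha (-1.44) and Fbp2 (-1.24) were called lower and 0 higher, and of 6 salivary glue genes Sgs1 was (-3.35). The other fat body markers, named after their values were seen, were Lsp1beta at 0.82, Lsp2 at 0.28 and Rfabg at -0.13 (edgeR adjusted p = 0.027, 0.39 and 0.61). The summed fat body markers overlapped between groups (55606.6 to 63509.6 CPM in labelled crol-KO and 55451.7 to 67256.5 CPM in labelled wild-type). The fat body list held 2 calls without replicate 1 or replicate 2 labelled crol-KO, and without replicate 1 or replicate 3 labelled wild-type. Fbp1, Lsp1alpha, Fbp2 and Sgs1 were called lower also in the length-corrected fit and without replicate 2 labelled wild-type, where the trachea genes were not. Of these fits, Sgs3, named after its values were seen, was called lower in the length-corrected one alone (-1.04). Without replicate 2 labelled crol-KO 3 glue genes were called.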
